A study of Mus musculus with 18 samples.

Results

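CD8 T cells were compared with CD4 T cells of the bone marrow of pMT-10 mice that drank control water, in 3 libraries of each cell type. These 6 of the 18 libraries of the series were chosen by their strain, treatment and cell type labels and not by a measured value. The other 12 libraries came from CD4 and CD8 cells of pMT-10 mice and of C57BL/6 mice that drank zinc-enriched water for 30 days. In pMT-10 mice an added copy of the IL-10 gene sits behind a metallothionein promoter, which zinc switches on and which is not restricted to a T cell type. Both groups compared here carried the transgene and neither was given added zinc, so no library of a mouse without the transgene enters the comparison. Cells were purified by fluorescence-activated sorting and their RNA was read out with an amplicon panel of 23930 genes, which copies a single stretch of each transcript. The age of the mice is not given in the sources used here, and the labels do not say which CD4 and CD8 libraries came from the same mouse. Replicate numbers only name libraries, and the p-values rest on a spread between libraries of a group that was estimated over all 18.

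CD4 and CD8 T cells arise from a common thymic precursor that carries both coreceptors. The transcription factor ThPOK, encoded by Zbtb7b, drives the CD4 fate, whereas RUNX3 silences Cd4 and drives the CD8 fate. CD4 cells become helper cells or regulatory T cells, CD8 cells become killer cells, and the marrow is known to hold naive, memory and regulatory T cells. RUNX proteins bind a short core that reads TGTGGT or TGCGGT. Promoters of 3 genes at the centre of this choice are shown, and all 3 genes differed between the groups below. The windows shown are those that held a match to this core. Each covers 250 bases before to 50 bases after a transcription start of RefSeq (GRCm38.p6), 5′ to 3′ on the strand of the gene, with each match to the core on either strand in capitals.
Cd8a (chr6:71373177-71373476, plus strand): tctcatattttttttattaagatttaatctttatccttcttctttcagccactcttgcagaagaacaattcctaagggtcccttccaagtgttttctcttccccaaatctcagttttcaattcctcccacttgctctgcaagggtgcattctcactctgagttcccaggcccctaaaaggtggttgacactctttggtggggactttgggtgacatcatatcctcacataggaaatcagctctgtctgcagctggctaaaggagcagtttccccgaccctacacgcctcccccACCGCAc
Runx3, distal start (chr4:135120395-135120694, plus strand): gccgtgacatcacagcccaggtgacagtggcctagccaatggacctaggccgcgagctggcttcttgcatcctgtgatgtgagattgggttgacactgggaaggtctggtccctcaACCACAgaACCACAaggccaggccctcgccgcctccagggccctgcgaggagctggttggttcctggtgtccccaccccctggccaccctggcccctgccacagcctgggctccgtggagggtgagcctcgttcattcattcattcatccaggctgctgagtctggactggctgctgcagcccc
Zbtb7b (chr3:89387622-89387921, minus strand): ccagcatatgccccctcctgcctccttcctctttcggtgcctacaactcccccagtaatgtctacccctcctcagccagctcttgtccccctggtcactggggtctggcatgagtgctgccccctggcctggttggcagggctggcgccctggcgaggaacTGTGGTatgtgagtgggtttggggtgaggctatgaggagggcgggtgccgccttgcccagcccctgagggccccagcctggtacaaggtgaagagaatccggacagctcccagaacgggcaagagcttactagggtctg
The Cd8a window held 1 match, the Runx3 window 2 and the Zbtb7b window 1, and a second listed start of Runx3 and of Zbtb7b held 0 each. The windows of Eomes and Foxp3, which also differed between the groups, were scanned too and held 0. Such a core was in 22.4% of all 32851 windows of this length and in 21.5% of the 10999 windows of genes tested. It was in 22.3% of the 1008 windows of genes called higher in CD8 and in 20.4% of the 1486 windows of genes called higher in CD4. A match is a description of letters and not a binding site.

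Total counts of the 6 libraries ran from 10601653 to 18519474, with 9.14 to 11.5% of the reads in the top 10 genes of a library. Across genes, which are not independent replicates, log2 CPM (counts per 1000000 of the scaled library size) correlated at 0.967 to 0.976 between libraries of a group and at 0.900 to 0.907 between groups. No pair of libraries of a group agreed within sampling noise, with chi-square per degree of freedom from 17.3 to 61.0. On the first principal component, with 68.4% of the variance, CD4 and CD8 libraries stood apart. The second (10.1%) set CD8 replicate 2, the library with the lowest total, at 48.6 from the other CD8 libraries at -20.2 and -29.7. The count of all genes called and the counts of several lists are therefore given below without it too.

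A gene was called at an adjusted p under 0.05 in edgeR's quasi-likelihood test, with Benjamini-Hochberg adjustment over all 11316 genes tested. Adjusted p values below are from that fit except where a sentence names another tool. Of these genes, 2458 (21.7%) were called, 1012 (8.94%) higher in CD8 and 1446 (12.8%) higher in CD4. Of these, 379 and 992 differed by at least 2-fold. All 3 CD8 libraries lay above all 3 CD4 libraries for 1966 genes (17.4%), and the reverse held for 2391 (21.1%). The median log2 change, CD8 minus CD4, was -0.01 over all genes. Scaling by library size alone moved that median to -0.10 and the counts to 750 higher in CD8 and 1673 higher in CD4, so the CD8 share of calls was 31.0% in place of 41.2%. Without CD8 replicate 2 the counts were 749 and 1163. In bulk libraries, fewer cells of a type and less RNA per cell cannot be told apart. The panel has 1 amplicon a gene, so levels are not compared between genes outside the marker sums below. Those sums, and the members that made up most of them, describe reads and not relative transcript levels.

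**Figure D1:**
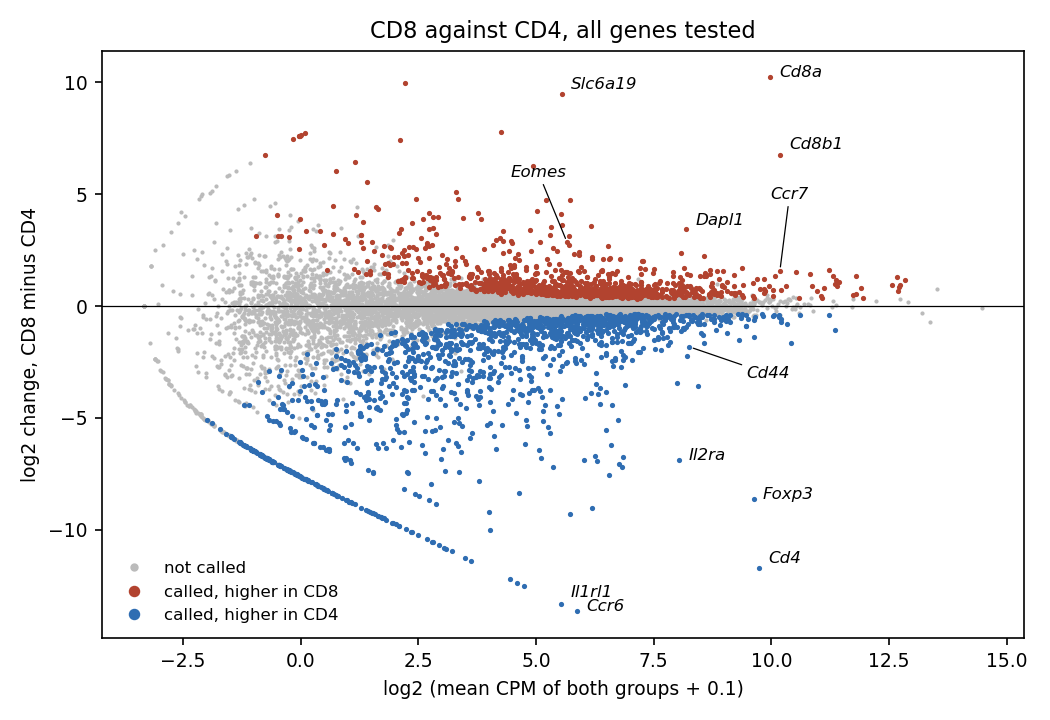
Log2 change (CD8 minus CD4) of each of the 11316 genes tested against the log2 of its mean CPM over both groups plus 0.1. Red points were called higher in CD8 (1012), blue points higher in CD4 (1446) and grey points not called; the blue arc at the lower left holds genes with 0 or almost 0 counts in CD8, whose fitted change depends on the prior count.

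The coreceptor genes, which encode the proteins the cells are named for, checked the labels and are given without a test. Cd4 (chromosome 6, 124864692 to 124888221) stood at 1654, 1720 and 1758 CPM in the CD4 libraries and at 0.59, 0 and 0.742 CPM in the CD8 libraries. Cd8a (chromosome 6, 71373427 to 71379173) stood at 1817, 2067 and 2151 CPM in CD8 and at 4.13, 0.213 and 0.891 CPM in CD4. Cd8b1, the beta chain of the same coreceptor, stood at 2185, 2096 and 2603 CPM in CD8 and at 25.6, 20.2 and 19.0 CPM in CD4. The groups stood far apart for all 3 genes, in the direction of the labels. Cd3e, a chain of the T cell receptor complex, averaged 1161 ± 127 CPM in CD8 and 939 ± 57 CPM in CD4 (SD, n = 3 each, adjusted p = 0.0972).

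The factors of the lineage choice differed as well. Zbtb7b (chromosome 3, 89377644 to 89394776) stood at 176, 185 and 167 CPM in CD4 and at 3.15, 2.24 and 5.67 CPM in CD8. The groups did not overlap, and CD4 was 47.8-fold higher (log2 -5.52, SE 0.35, adjusted p = 8.51e-10). Runx3 (chromosome 4, 135120652 to 135177990) stood at 424, 352 and 372 CPM in CD8 and at 188, 163 and 156 CPM in CD4. Here CD4 cells kept a clear level, and CD8 was 2.26-fold higher without overlap (log2 1.18, SE 0.16, adjusted p = 1.47e-05). Runx1, a second member of the family, was 2.32-fold higher in CD4 (507 ± 26.1 against 218 ± 13.4 CPM, adjusted p = 6.2e-06). Gata3, a factor of CD4 development and of type 2 helper cells, was 5.54-fold higher in CD4 (adjusted p = 7.78e-09). Cd40lg, through which helper cells license B cells and dendritic cells, was 76.6-fold higher in CD4 (59.2, 54.3 and 48.2 against 0.917, 0.293 and 0.901 CPM). Crtam, an adhesion receptor of activated killer cells, stood at 75.1, 69.0 and 76.3 CPM in CD8 and at 7.82, 5.76 and 5.41 CPM in CD4, 11.6-fold apart (adjusted p = 4.01e-11). Of 7 genes listed for the CD4 lineage, 5 were called higher in CD4 and 0 in CD8, and of 8 listed for the CD8 lineage, 5 were called higher in CD8 and 1, Runx1, in CD4. Beside them, 12.8% of all genes tested were called higher in CD4 and 8.94% in CD8, and the percentages of tested members given for the lists below stand beside these 2 shares. The median log2 changes of the lists were -2.47 and 1.05. These lists hold the coreceptor genes themselves.

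**Figure D2:**
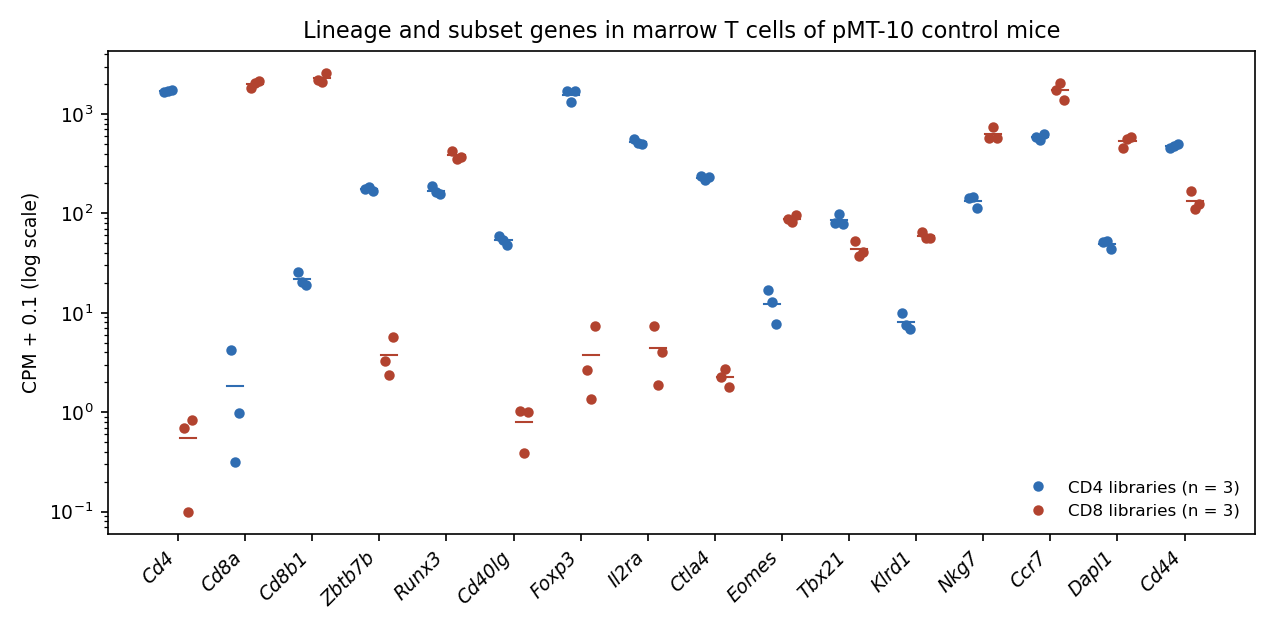
CPM plus 0.1 on a log scale for 16 genes, with 1 point for each of the 3 CD4 (blue) and 3 CD8 (red) libraries and a bar at the mean. Cd4, Zbtb7b, Foxp3, Il2ra and Ctla4 sat high in CD4 and low in CD8, Cd8a, Cd8b1, Eomes, Klrd1, Nkg7 and Dapl1 the other way, and Runx3, Tbx21 and Ccr7 stood apart by less.

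Genes of regulatory T cells, the suppressive CD4 cells that depend on FOXP3, stood higher in the CD4 libraries without exception. All 17 listed genes were tested, and 17 were called higher in CD4, beside 12.8% of all genes, and their median log2 change was -5.38 (-5.35 with genes at 0 counts set at their bounds). Foxp3 (chromosome X, 7573644 to 7595245), the factor that defines these cells, stood at 1702, 1321 and 1688 CPM in CD4 and at 2.56, 1.27 and 7.26 CPM in CD8. The groups did not overlap, CD8 replicate 3 was the highest of its group, and the ratio of the means was 425 (821 without CD8 replicate 3). Il2ra, the high-affinity interleukin-2 receptor chain, stood at 556, 512 and 498 against 7.21, 1.76 and 3.92 CPM, a ratio of 122 (184 without CD8 replicate 1, adjusted p = 2.75e-07). Ctla4, the inhibitory receptor for CD80 and CD86, stood at 239, 218 and 231 against 2.16, 2.63 and 1.70 CPM (106-fold, adjusted p = 4.01e-11). Ikzf2, which encodes Helios, was 14.5-fold higher in CD4. Lrrc32 encodes GARP, which holds latent TGF-beta on the surface of activated regulatory T cells. It stood at 50.6, 53.7 and 55.4 CPM in CD4 and had 0 counts in all 3 CD8 libraries, so CD4 was at least 788-fold higher. Such bounds compare counts pooled over a group with 3 counts over the group at 0, cover counting error only, and fall 1.74-fold or 1.52-fold without CD8 replicate 3 or 1 through the lost depth alone.

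Il10 (chromosome 1, 131019845 to 131024974), the gene the transgene carries, was read in this uninduced state too. It stood at 3.10, 3.63 and 1.40 CPM in CD4 and had 0 counts in all 3 CD8 libraries, so CD4 was at least 40.9-fold higher (adjusted p = 0.000126). The amplicon cannot tell reads of the added copy from those of the endogenous gene. Il10ra, the ligand-binding chain of the IL-10 receptor, stood at 312, 289 and 306 CPM in CD4 and at 131, 127 and 79.0 CPM in CD8, 2.69-fold apart (adjusted p = 2.04e-05). Of 13 IL-10 and STAT3 signalling genes, 6 (46.2%) were called higher in CD4 and 1 (7.69%), the shared cytokine receptor chain Il6st, in CD8. Their median log2 change was -0.55. The CD4 count was 4 without CD8 replicate 2 and 4 to 7 over all single libraries left out. Pim1, a kinase gene that cytokines induce, was 2.57-fold higher in CD4 (1146 ± 154 against 446 ± 99.3 CPM, adjusted p = 6.57e-05). Il6st (1.36-fold) lost its call in turn without all but 1 of the 6 libraries, with adjusted p up to 0.163. Mt1, a metallothionein gene that zinc induces, stood at 0.258, 1.39 and 0.70 CPM in CD4 and at 0.786, 0 and 0.053 CPM in CD8, with overlap (adjusted p = 0.234). The ratio of the means was 2.79, or 29.5 without CD8 replicate 1, where the gene was called (adjusted p = 0.00585), and 1.71 without CD4 replicate 2.

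Costimulatory and coinhibitory receptors, which set how strongly a T cell responds to antigen, were mostly higher in CD4. Of 17 tested, 12 (70.6%) were called higher in CD4 and 2 (11.8%) in CD8, with a median log2 change of -2.11. Members shared with the regulatory T cell list are among them, such as Tnfrsf4, which encodes OX40 (49.4-fold), Tigit (41.6-fold) and Icos (4.31-fold). Tnfrsf4 stood at 76.2, 81.0 and 73.9 CPM in CD4 and at 1.57, 2.15 and 0.954 CPM in CD8. Cd226, an activating receptor that shares ligands with TIGIT, was 1.45-fold higher in CD8 (adjusted p = 0.00624). Tnfrsf14 was 1.48-fold higher in CD8 (adjusted p = 0.0135) and lost its call without CD4 replicate 1 or 3 or CD8 replicate 3. Pdcd1, the gene of PD-1, was chosen after its values were seen: it averaged 187 CPM in CD4 and 8.74 CPM in CD8 (log2 -4.44, adjusted p = 5.97e-06).

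Genes of helper subsets and innate-like T cells also stood higher in CD4. Of 18 listed, 15 passed the filter on low counts and 13 of these (86.7%) were called higher in CD4 and 0 in CD8. Their median log2 change was -2.99. The filter keeps a gene with enough counts in a single group, so members at 0 counts in CD8 could pass only through other groups. The share of tested members can thus lean to the side where members are high. Il1rl1 encodes ST2, the interleukin-33 receptor of type 2 helper cells and tissue regulatory T cells. It stood at 115, 55.4 and 106 CPM in CD4 and had 0 counts in CD8, a difference of at least 1326-fold. Il17rb, the interleukin-25 receptor, averaged 16.3 ± 2.59 CPM in CD4 and had 0 counts in CD8 (at least 238-fold). Pparg, a nuclear receptor gene of fat-tissue regulatory T cells and type 2 helper cells, stood at 10.7, 3.68 and 10.4 CPM in CD4 and 0 in CD8 (at least 118-fold). Chosen after its values were seen, Maf, a factor of several helper subsets and of IL-10 producers, averaged 225 CPM in CD4 and 1.51 CPM in CD8.

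Cytokine genes followed the same side. Of 19 listed, 14 were tested, and 11 (78.6%) were called higher in CD4 and 0 in CD8. Members at 0 counts in CD8, such as Il10 and Il4, passed the filter through other groups here too. The CD4 count was 9 without CD8 replicate 2 and 8 to 11 over all single libraries left out. The median log2 change was -3.83 (-3.17 with genes at 0 counts at their bounds). Csf1, which encodes the growth factor of macrophages, stood at 103, 106 and 106 CPM in CD4 and at 0.459, 0 and 0 CPM in CD8, where 7 reads in 1 library made up the signal. Ifng, the gene of interferon gamma, stood at 33.0, 45.4 and 32.6 CPM in CD4 and at 13.6, 5.85 and 7.42 CPM in CD8. The CD4 libraries were thus the higher ones for this cytokine, 4.14-fold and without overlap (log2 -2.04, SE 0.46, adjusted p = 0.00403). Il4, the type 2 helper cytokine, averaged 1.85 ± 0.192 CPM in CD4 and had 0 counts in CD8 (at least 27.3-fold). Of 29 cytokine receptor genes, 27 were tested, 11 (40.7%) were called higher in CD4 and 2 (7.41%) in CD8, with a median log2 change of -0.37. The CD8 share is near that of all genes, and its count was 0 without CD8 replicate 3 and 1 without CD8 replicate 1 or any CD4 library. Il9r, the interleukin-9 receptor, averaged 49.4 ± 12.5 CPM in CD4, and all 6 of its reads in CD8 came from replicate 2 (adjusted p = 1.05e-07). Il2rb, the chain shared by the receptors for interleukins 2 and 15, was 1.66-fold higher in CD4 (1476 ± 221 against 889 ± 156 CPM, adjusted p = 0.00313). Il7r, the survival receptor of naive and memory T cells, stood at 1062, 1182 and 1027 CPM in CD8 and at 1024, 870 and 854 CPM in CD4 and was not called (adjusted p = 0.534).

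Markers of other marrow cells that a gate could hold were near 0 CPM in sum for some types and well above it for others. Those that were called fell on the CD4 side in all but 4 cases. Of 11 B cell markers in the table, Pax5 and Vpreb3 were among those with 0 counts in all 6 libraries. The summed list stood at 201 to 299 CPM in CD4 and 41.6 to 62.7 CPM in CD8, and its most abundant member in CD4 was Cd74, the invariant chain of class II molecules (192, 265 and 165 against 5.18, 4.68 and 7.74 CPM). Of 9 monocyte and macrophage markers, Fcgr1 and C1qa were at 0 in all 6, and the sum of 78.2 to 114 CPM in CD4 against 13.5 to 24.1 CPM in CD8 was mostly Ccr2, a chemokine receptor gene that T cells also use. Of 10 neutrophil markers, Mpo, Ltf, Retnlg and Ly6g were at 0, and the sum was 0.907 to 1.23 CPM in CD4 and 0.195 to 1.38 CPM in CD8. Dendritic cell markers summed to 181 to 210 against 136 to 181 CPM, mostly Bst2, with Flt3 and Batf3 at 0. Plasma cell markers summed to 152 to 165 against 62.7 to 88.4 CPM, mostly Xbp1, with Mzb1 at 0. The 8 NK cell markers summed to 246 to 264 CPM in CD4 and 367 to 405 CPM in CD8, with Cd7 the most abundant over both groups. Of the 5 tested, 3 (60%) were called higher in CD8 and 1 (20%) in CD4, beside 8.94% and 12.8% of all genes. Eomes, which is also in the memory and effector list, was among the 3, and Klrb1c was the CD4 one. The CD8 count was 2 without any single library but CD8 replicate 3. Stem and progenitor markers summed to 4.64 to 7.51 against 0.328 to 0.976 CPM, erythroid markers to 17.1 to 27.5 against 30.1 to 42.2 CPM (Tfrc called higher in CD8, Klf1 at 0), and mast cell, basophil and eosinophil markers to 1.07 to 1.36 against 0 to 0.197 CPM. Platelet markers (0.0646 to 3.36 against 1.27 to 2.95 CPM) and stromal and endothelial markers (291 to 393 against 336 to 351 CPM, mostly Pecam1) had 0 members called. The part of other cells in the differences of the regulatory, helper, cytokine and killer cell lists was not tested.

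Killer cell genes did not all sit in the CD8 libraries. Of 17 cytotoxic granule and death ligand genes, 6 (35.3%) were called higher in CD8 and 5 (29.4%) in CD4, and the median log2 change was -0.38. The CD4 count was 3 without CD4 replicate 1, 2 without CD4 replicate 3 and 3 without CD8 replicate 3, while the CD8 count was 6 in each of these fits. Prf1 encodes perforin, which opens the membrane of the target cell. It stood at 58.5, 42.9 and 49.4 CPM in CD8 and at 8.27, 10.2 and 8.91 CPM in CD4, 5.51-fold apart without overlap (adjusted p = 1.6e-05). Nkg7, a granule membrane protein gene, stood at 569, 745 and 575 against 142, 146 and 112 CPM (4.73-fold, adjusted p = 7.58e-05), and the granzyme gene Gzmm at 22.7, 12.7 and 17.2 against 4.84, 3.68 and 2.93 CPM (4.6-fold). Perforin, Nkg7 and this granzyme thus lay on the CD8 side in every library. Gzmb, the best known granzyme gene, stood at 49.3, 36.9 and 31.4 CPM in CD4 and at 11.1, 12.9 and 9.06 CPM in CD8, so CD4 was 3.55-fold higher (adjusted p = 0.011, and 0.0612 without CD8 replicate 3). Fasl and Tnfsf10, the genes of the death ligands FasL and TRAIL, were 4.04-fold and 1.74-fold higher in CD4. The call of Tnfsf10 was lost without CD4 replicate 1 or 3 or CD8 replicate 2 (adjusted p from 0.0512 to 0.0682). Ccl5, a chemokine gene of effector and memory cells, stood at 755, 982 and 560 CPM in CD8 and at 475, 426 and 360 CPM in CD4 and was not called over all 18 libraries (adjusted p = 0.14), though it was with the 6 libraries alone (adjusted p = 0.00374).

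The T-box factors of killer cells fell on opposite sides. Eomes (chromosome 9, 118478212 to 118486132), a factor of memory CD8 and NK cells, stood at 86.9, 82.4 and 96.3 CPM in CD8 and at 16.7, 12.6 and 7.57 CPM in CD4. The groups stood 7.2-fold apart without overlap (log2 2.85, SE 0.28, adjusted p = 2.27e-07). Tbx21 (chromosome 11, 97098071 to 97115331) encodes T-bet, the factor of type 1 helper and effector CD8 cells. It stood at 79.7, 97.9 and 77.8 CPM in CD4 and at 52.3, 37.6 and 40.5 CPM in CD8, 1.96-fold higher in CD4 (log2 -0.97, SE 0.21, adjusted p = 0.0016).

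Killer cell receptors split by gene in the same way. Of 19 listed, 17 were tested, 4 (23.5%) were called higher in CD8 and 3 (17.6%) in CD4, with a median log2 change of 0.69. Klrd1, which encodes CD94, the partner of the NKG2 receptors, stood at 65, 56.6 and 55.8 CPM in CD8 and at 9.82, 7.47 and 6.81 CPM in CD4 (7.36-fold, adjusted p = 2.4e-08). The Ly49 receptor genes Klra6 (17.5, 22.3 and 17.1 against 0.517, 0.533 and 0.573 CPM) and Klra7 (86.5, 72.5 and 53.8 against 3.55, 2.40 and 1.91 CPM) were 35.1-fold and 27.1-fold higher in CD8. Genes of this family are close copies, so reads could be split between them. Klrg1, a receptor of late effector cells and of a regulatory T cell subset, went the other way, at 270, 166 and 209 CPM in CD4 and 3.47, 0.976 and 0.318 CPM in CD8. That ratio was 135, and 333 without CD8 replicate 1. Klrb1c, the gene of NK1.1, was 6.38-fold higher in CD4 (163, 184 and 165 against 38.7, 17.3 and 24.4 CPM, adjusted p = 0.000111). Klrb1f was called higher in CD4 too (3.68-fold), and lost its call without CD4 replicate 2 or CD8 replicate 3.

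Genes of naive and quiescent T cells stood higher in CD8. Of 18 listed, all tested, 15 were called higher in CD8 and 0 in CD4, beside 8.94% of all genes, and their median log2 change was 1.23. The count was 9 without CD4 replicate 1, 11 without CD8 replicate 2, 9 to 12 over all single libraries left out, and 13 with scaling by library size alone. Dapl1, a gene that marks naive CD8 cells, stood at 458, 554 and 590 CPM in CD8 and at 51.0, 53.1 and 44.1 CPM in CD4, 10.8-fold apart (log2 3.43, SE 0.40, adjusted p = 7.79e-06). Ccr9, the receptor for the gut and thymus chemokine CCL25, stood at 78.1, 51.8 and 82.8 against 7.23, 8.27 and 7.83 CPM (9.11-fold, adjusted p = 1.01e-06). Neither gene showed overlap. Ccr7, the chemokine receptor that leads T cells into lymph nodes, stood at 1742, 2065 and 1392 CPM in CD8 and at 590, 547 and 622 CPM in CD4. It was higher in every CD8 library (2.96-fold, adjusted p = 0.0216), with CD8 replicate 2 the highest, and lost its call without any single library but CD8 replicate 3 (adjusted p up to 0.0873). Tcf7 and Lef1, factors of naive and stem-like T cells chosen after their values were seen, had log2 changes of 0.79 (adjusted p = 0.00661) and 1.21 (adjusted p = 0.000372).

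Genes of memory and effector T cells were the counterpart, with 15 of 20 (75%) called higher in CD4 and 1 (5%), Eomes, in CD8, and a median log2 change of -1.31. Leaving out single libraries left 14 to 15 and 1. Cd44, the adhesion receptor that marks antigen-experienced cells, stood at 456, 481 and 493 CPM in CD4 and at 167, 112 and 125 CPM in CD8 (3.54-fold, adjusted p = 2.7e-07). Prdm1, which encodes the effector factor Blimp-1, stood at 77.6, 66.8 and 58.4 against 0, 0.781 and 1.01 CPM (113-fold, and 173-fold without CD8 replicate 3). Anxa1, the gene of annexin A1, stood at 87.3, 56.3 and 102 against 1.18, 0 and 0.371 CPM (158-fold, and 441-fold without CD8 replicate 1). No CD8 library reached a CD4 library for these genes. Id2, a factor of effector and innate-like lymphocytes, was 3.38-fold higher in CD4 (138 ± 5.23 against 41.0 ± 7.69 CPM, adjusted p = 2.72e-07). Id3, its counterpart in naive and long-lived cells, stood at 111, 113 and 93.0 CPM in CD8 and at 145, 103 and 180 CPM in CD4, with overlap (adjusted p = 0.186). Of 12 Id, E-protein and Zeb factor genes, Id2 alone was called (8.33%), 2 were called without CD8 replicate 1 and 3 with either other scaling.

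**Figure D3:**
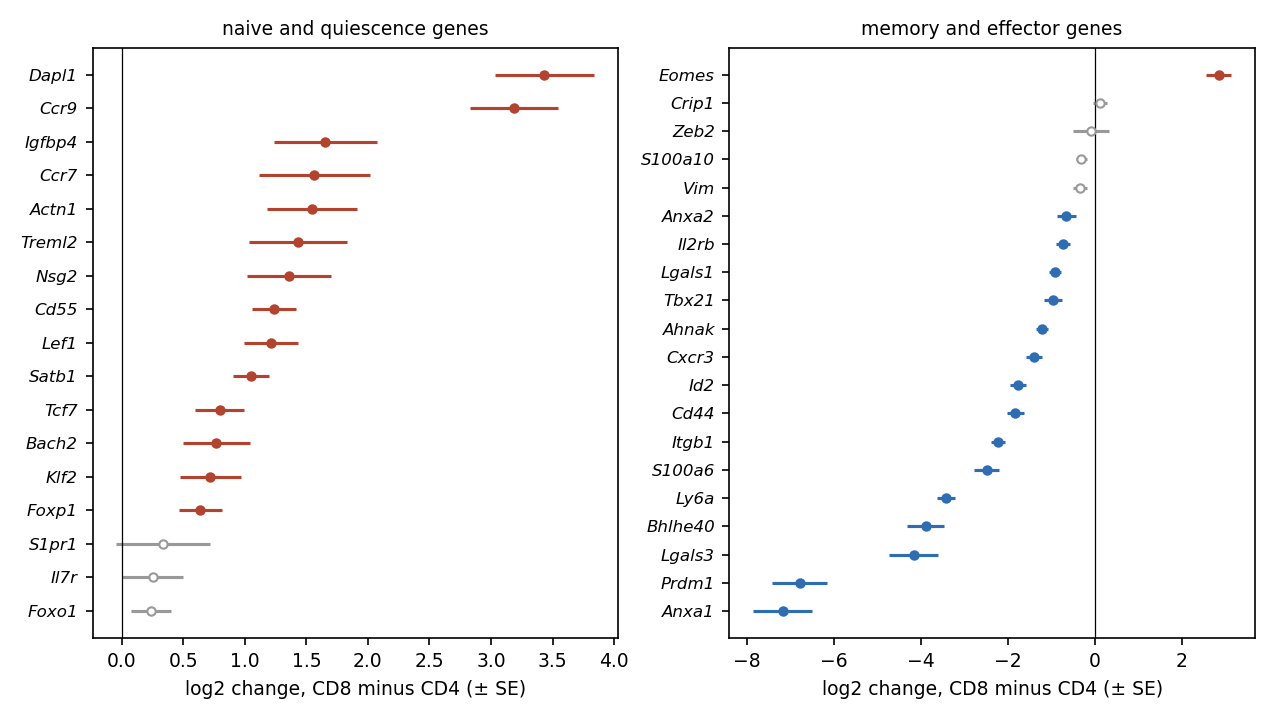
Log2 change (CD8 minus CD4) with its SE for 17 of the 18 naive and quiescence genes (left) and 20 memory and effector genes (right), n = 3 libraries a group; filled points were called, red higher in CD8 and blue higher in CD4, and open points were not. All called naive genes drawn lie above 0, and all called memory genes but Eomes lie below 0.

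Receptors that guide T cells between blood, lymph nodes and tissues were called on both sides. Of 20 listed, 19 were tested, 4 (21.1%) were called higher in CD8 and 9 (47.4%) in CD4, with a median log2 change of -0.60. The counts were 1 and 8 without CD4 replicate 2, 2 and 7 without CD4 replicate 1, and 2 and 6 without CD8 replicate 2. On the CD8 side were, among others, Ccr7 and Ccr9, described above, and Selplg, the gene of a selectin ligand, named after its values were seen (517 against 361 CPM). Ccr6, the receptor of type 17 helper cells and some regulatory T cells for CCL20, stood at 99.2, 145 and 105 CPM in CD4 and had 0 counts in CD8 (at least 1749-fold). Ccr4, a receptor of skin-homing, type 2 helper and regulatory T cells, stood at 203, 148 and 206 CPM in CD4 and at 0.852, 0.781 and 1.22 CPM in CD8 (195-fold, adjusted p = 7.59e-10). Ccr10, another skin-homing receptor, averaged 2.35 ± 0.883 CPM in CD4 and had 0 counts in CD8 (at least 34.4-fold). All 3 receptors separated the groups completely.

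Of 16 integrin subunit genes, 10 (62.5%) were called higher in CD4 and 1 (6.25%) in CD8, and the median log2 change was -0.995. The CD4 count was 8 without CD8 replicate 2 and 8 to 9 over all single libraries left out. Itgae, the alpha chain of the E-cadherin receptor CD103, was the CD8 one, at 85.1, 124 and 128 against 62.4, 59.5 and 55.7 CPM (1.9-fold, adjusted p = 0.000379). Itgb8, whose product activates TGF-beta on regulatory T cells, stood at 39.6, 58.9 and 32.0 CPM in CD4 and had 0 counts in CD8 (at least 658-fold). Itgb5 averaged 1.94 ± 0.983 CPM in CD4 with 0 counts in CD8 (at least 29.0-fold), and Itga1, the alpha chain of a collagen receptor, was 6.15-fold higher in CD4. Of 10 chemokine genes, 9 were tested, 2 (22.2%) were called higher in CD4 and 0 in CD8, and 1 was called without CD4 replicate 2 or any CD8 library. Cxcl10, an interferon-induced chemokine gene, stood at 61.0, 102 and 36.5 CPM in CD4 and at 13.2, 5.17 and 5.93 CPM in CD8 (8.23-fold, adjusted p = 0.012), and its call was lost without CD8 replicate 2 or 3.

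The T cell receptor complex and its proximal signalling chain held calls on both sides. Of 22 genes, 4 (18.2%) were called higher in CD8 and 3 (13.6%) in CD4, beside 8.94% and 12.8% of all genes, so the CD4 share is near that of all genes. The median log2 change was 0.15. Txk, a Tec-family kinase gene, was 2.12-fold higher in CD8 (222, 182 and 209 against 90.2, 94.5 and 105 CPM), Themis, which tunes receptor signals in thymic selection, 2.03-fold, and Cd3d 1.74-fold. The receptor dampeners Cd5 and Cd6 were 2.49-fold and 1.73-fold higher in CD4. Lck, the kinase that the coreceptors carry, stood at 1559, 1051 and 1772 CPM in CD8 and at 1242, 1246 and 1175 CPM in CD4, with overlap (adjusted p = 0.372). Lcp2, the gene of the adaptor SLP-76, was 1.38-fold higher in CD4 (adjusted p = 0.0132), a call lost without CD4 or CD8 replicate 3.

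Survival, division and metabolism genes gave small counts. Of 10 BCL2 family genes tested, 2 (20%) were called higher in CD8 and 1 (10%) in CD4. Bcl2, the survival factor of resting lymphocytes, stood at 107, 123 and 153 CPM in CD8 and at 41.6, 42.6 and 40.9 CPM in CD4 (3.06-fold, adjusted p = 1.64e-05), while Bcl2l1, which encodes Bcl-xL, was 1.81-fold higher in CD4 (adjusted p = 0.00843). Of 21 cell cycle genes tested, 3 (14.3%) were called on each side, beside 12.8% of all genes on the CD4 side and 8.94% on the CD8 side, and scaling by library size alone gave 5 on the CD4 side. Mki67 and Top2a, genes of dividing cells, were 5.82-fold and 3.23-fold higher in CD4, at 10.7 ± 1.08 against 1.83 ± 1.17 CPM and 12.7 ± 2.75 against 3.94 ± 0.523 CPM. On the CD8 side were the replication helicase genes Mcm5 and Mcm7 (1.64-fold and 1.48-fold), which lost their calls without CD4 replicate 2, and the tubulin gene Tubb5 (1.87-fold). Of 11 glycolysis genes 1 (9.09%) was called higher in CD8 and 3 (27.3%) in CD4, among them the glucose transporter gene Slc2a3 (276, 263 and 276 against 97.1, 96.1 and 88.5 CPM, 2.89-fold). Of 18 respiratory chain and ATP synthase genes 6 (33.3%) were called higher in CD8 and 0 in CD4, with a median log2 change of 0.43. That count fell to 3 with scaling by library size alone and to 1, 1 and 2 without CD4 replicate 1, CD4 replicate 2 and CD8 replicate 2. Atp5b, the catalytic subunit of ATP synthase, was 1.49-fold higher in CD8 (adjusted p = 0.000282).

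Interferon-stimulated genes leaned to CD4. Of 25, 11 (44%) were called higher in CD4 and 0 in CD8, with a median log2 change of -0.51, and 7 were called without CD8 replicate 3. The guanylate-binding protein genes Gbp3 (168, 168 and 138 against 52.0, 55.3 and 50.5 CPM) and Gbp5 (125, 146 and 87.8 against 51.2, 44.6 and 46.9 CPM) were 3-fold and 2.51-fold higher. Ifi44 averaged 7.98 ± 2.88 against 1.63 ± 0.0356 CPM. Of 25 immediate early and stress genes tested, which respond to handling and to receptor signals, 5 (20%) were called higher in CD4 and 0 in CD8, with a median log2 change of -0.07. The count was 3 without CD8 replicate 2 and 3 to 4 over all single libraries left out. Dusp1, a phosphatase gene of that response, was 4.16-fold higher in CD4, and the NF-kappaB inhibitor genes Tnfaip3 and Nfkbia were 2.32-fold and 2.12-fold higher.

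**Figure D4:**
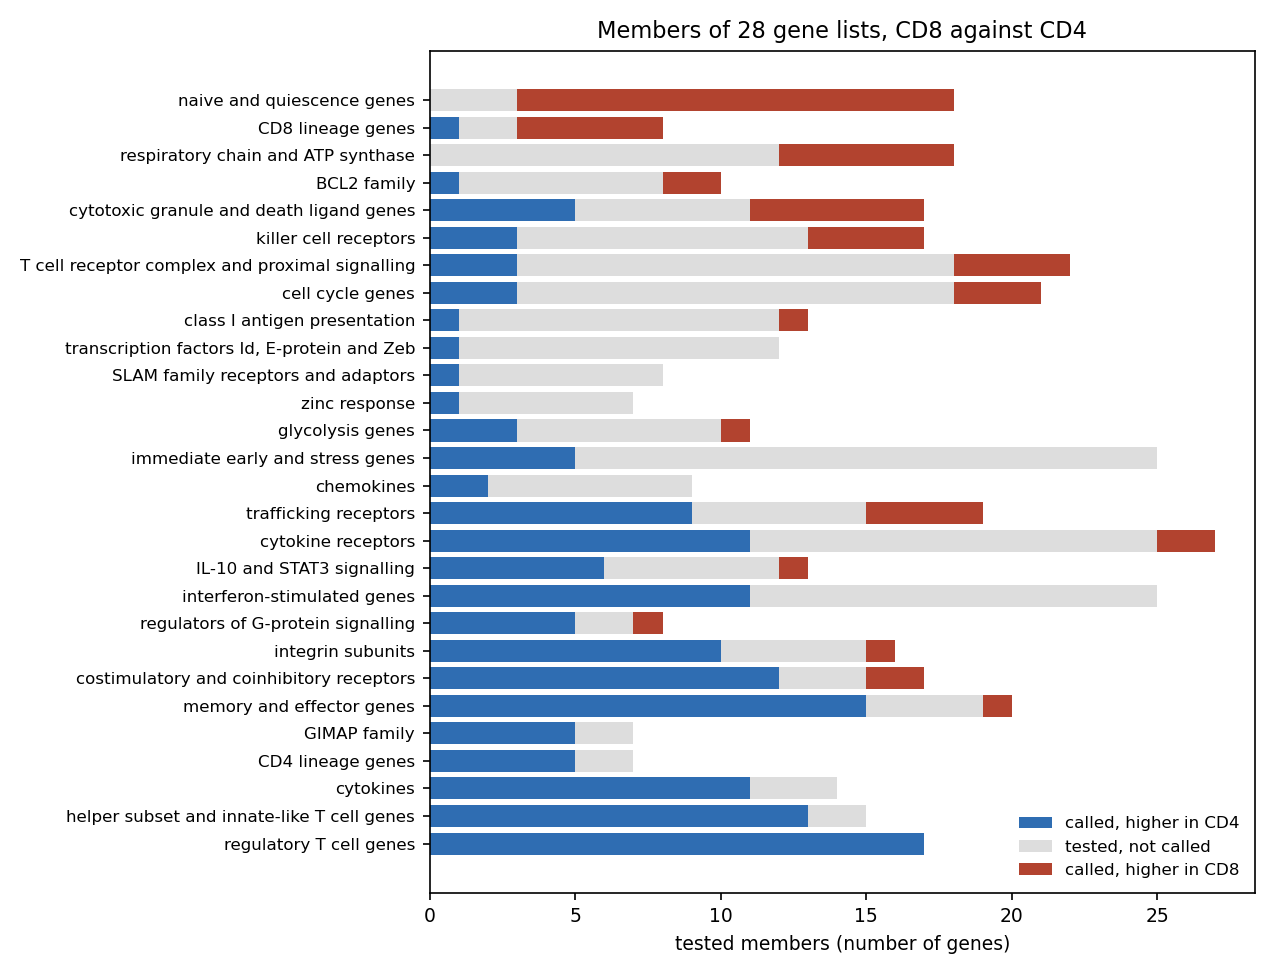
Number of tested members of each of 28 gene lists that were called higher in CD4 (blue), not called (grey) or called higher in CD8 (red). Regulatory T cell genes (17 of 17) are at the CD4 end, and naive and quiescence genes (15 of 18) at the CD8 end.

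The naming rule also took the 12 largest changes a side among called genes with a mean of at least 10 CPM and no overlap, list members included. Cd8a, Cd8b1, Klra6 and Klra7, described above, are among those of the CD8 side. On the CD8 side Slc6a19 (chromosome 13, 73679745 to 73704865), a neutral amino acid transporter gene, stood at 85.9, 71.9 and 121 CPM in CD8 and at 0, 0.16 and 0.191 CPM in CD4 (795-fold, adjusted p = 6e-09). The CD4 values above 0 equal 3 counts each at the depth of their libraries, so the ratio rests on few reads. Eng, the gene of the TGF-beta co-receptor endoglin, stood at 55.9, 56.0 and 69.4 against 0, 1.97 and 0.255 CPM, a ratio of 81.4 (475 without CD4 replicate 2). Rcn3, a calcium-binding protein gene of the endoplasmic reticulum, stood at 81.6, 121 and 101 against 2.97, 4.32 and 4.01 CPM (26.9-fold, adjusted p = 2.06e-09). The naming rule took only genes without overlap, so the separation of the groups for these genes was set by the choice. Plaur, which encodes the urokinase receptor, was 27.9-fold higher in CD8, and Fcgrt, which encodes the neonatal Fc receptor, 18.8-fold (63.4, 66.2 and 54.7 against 3.81, 3.36 and 2.61 CPM). The glutamate receptor gene Gria3 was 28.4-fold higher in CD8 (46.2-fold without CD4 replicate 1), and Cercam 18.6-fold (30.0-fold without CD4 replicate 2 and 12.2-fold without CD8 replicate 2). Bend4 stood at 42.5, 26.7 and 43.6 CPM in CD8 and at 0.452, 0 and 0.0636 CPM in CD4 (219-fold, and 1183-fold without CD4 replicate 1).

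On the CD4 side 11 of the 12 genes had 0 counts in all 3 CD8 libraries, and the other was Cd4 itself. Ccr6, Il1rl1, Lrrc32, Itgb8 and Il17rb are described above. Map6, a microtubule-binding protein gene, stood at 46.9, 38.9 and 59.0 CPM in CD4 (at least 706-fold). Cybb, the catalytic subunit of the phagocyte NADPH oxidase, stood at 19.1, 37.9 and 16.2 CPM (at least 373-fold), and Fam160a1 at 20.3, 29.8 and 17.2 CPM (at least 339-fold). Reads of these genes were in each CD4 library and in no CD8 library, a pattern that ranking by the fitted change favours. Gcnt1, a glycosyltransferase gene of selectin ligand synthesis, averaged 18.3 ± 3.21 CPM (at least 274-fold), and Penk, the enkephalin precursor gene, 16.7 ± 3.16 CPM (at least 250-fold). The last was a predicted gene, at 15.1 ± 5.05 CPM.

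The same cell type difference was measured in zinc-fed C57BL/6 mice and in zinc-fed pMT-10 mice, which share no library with the control mice. The zinc libraries were read on another chip, so zinc and chip cannot be told apart, though each cell type difference lies within 1 chip. The C57BL/6 libraries also held 2866 to 5188 counts of 4 Y-linked genes and 2 to 510 of Xist, against 0 and 6117 to 18633 in the pMT-10 control libraries, so strain, zinc, chip and sex differ together there. In zinc-fed C57BL/6 mice 2511 genes were called between CD8 and CD4. Of these, 1764 were called in the same direction as in pMT-10 control mice (71.8% of the 2458 and 70.3% of the 2511), and 2 in the opposite one. In zinc-fed pMT-10 mice, whose transgene was switched on, 3178 genes were called. Of these, 1466 had the same direction (59.6% of the 2458 and 46.1% of the 3178) and 28 the opposite one.

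A contrast of the contrasts tested where the cell type difference of pMT-10 control mice itself differed. Against zinc-fed C57BL/6 mice 1 gene of 11316 was called (0.00884%), and DESeq2 called 8. In edgeR 461 had an unadjusted p under 0.05, fewer than the 0.05 share of genes that would fall there if none differed. The gene called in edgeR was Adgrg5 (chromosome 8, 94923694 to 94943280), an adhesion G-protein-coupled receptor gene. It stood at 140, 114 and 146 CPM in CD8 and at 9.95, 12.9 and 10.6 CPM in CD4 of pMT-10 control mice (12-fold). The CD8 group of C57BL/6 mice averaged 149 ± 15.4 CPM and its CD4 group 2.38 ± 1.32 CPM, so the difference of the log2 changes was -2.38 (3.58 against 5.96, SE 0.32, adjusted p = 0.00349). Tbx21 was higher in CD4 of pMT-10 control mice (log2 -0.97) and stood at 64.8 ± 20.1 CPM in CD8 and 44.4 ± 10.2 CPM in CD4 of C57BL/6 mice (log2 0.54). The difference between these kinds of mice was not called (-1.51, adjusted p = 0.197). It was called without zinc-fed C57BL/6 CD8 replicate 1 (-1.75, adjusted p = 0.00658) and in DESeq2 (adjusted p = 0.00275). For Zbtb7b, Foxp3 and Eomes the adjusted p of this difference was 1 each.

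Against zinc-fed pMT-10 mice, 428 genes (3.78%) were called, 152 with a larger CD8 minus CD4 value in control mice (35.5%) and 276 with a smaller one. Scaling by library size alone gave 613, of which 76 (12.4%) had a larger and 537 a smaller value, and 352 were among the 428. The count was 133 without zinc CD4 replicate 1, 197 without zinc CD4 replicate 3, 201 to 249 without any of the control CD4 libraries, and 693 without zinc CD4 replicate 2. Eomes was 7.2-fold higher in CD8 of control mice. In zinc-fed pMT-10 mice it averaged 154 ± 43.7 CPM in CD8 and 335 ± 46.9 CPM in CD4, so its log2 change was 2.85 against -1.12 (difference 3.97, SE 0.38, adjusted p = 1.93e-05). Runx3 was at 406 ± 26.8 and 409 ± 97.7 CPM in CD8 and CD4 of zinc-fed pMT-10 mice, where control mice had 383 ± 37.0 and 169 ± 17.0 CPM (difference 1.19, adjusted p = 0.00597). For both factors the CD4 means of the pMT-10 mice lay farther apart between the water regimes than the CD8 means. Nkg7 and Prf1, the killer genes that marked control CD8 cells, stood at 2055 ± 556 and 95.5 ± 24.3 CPM in zinc CD4 cells against 1260 ± 94.2 and 99.8 ± 48.3 CPM in zinc CD8 cells. Their differences were 2.95 (adjusted p = 0.00178) and 2.40 (adjusted p = 0.00538). Ctla4 stayed higher in CD4 of zinc-fed pMT-10 mice, at 90.3 ± 10.3 against 10.9 ± 4.45 CPM, by less than in control mice (difference -3.71, adjusted p = 6.16e-05). Klrd1 went the other way, with a larger CD8 excess in zinc-fed pMT-10 mice (46.0 ± 4.90 against 0.765 ± 0.228 CPM, difference -3.03, adjusted p = 0.00014). For Foxp3 and Zbtb7b the difference was not called (adjusted p = 0.197 and 0.70), but that of Foxp3 was without control CD8 replicate 3 (-2.40, adjusted p = 0.0219).

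**Figure D5:**
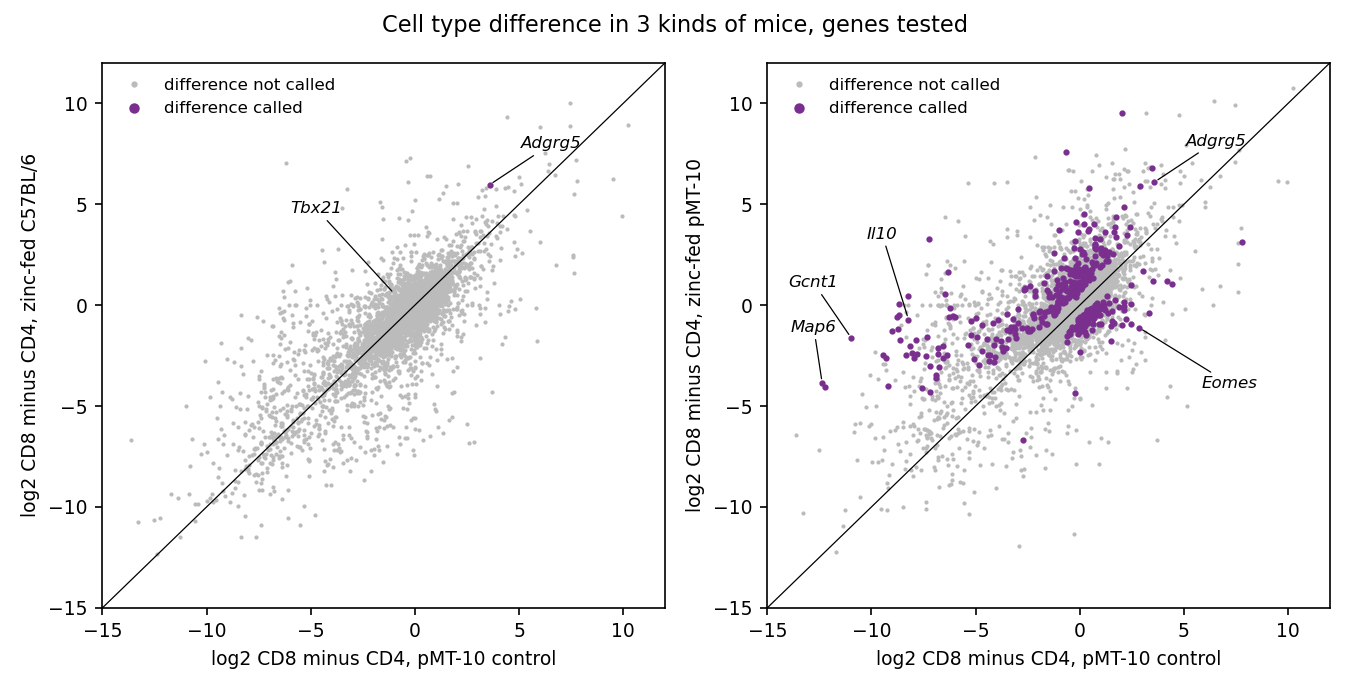
Log2 change (CD8 minus CD4) in zinc-fed C57BL/6 mice (left) and zinc-fed pMT-10 mice (right) against that in pMT-10 control mice, for the 11316 genes tested, with a line at equal values. Purple points are genes whose difference was called, 1 (Adgrg5) on the left and 428 on the right.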

How the data were processed

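RNA of sorted marrow CD4 and CD8 T cells was extracted with RNeasy Micro columns and made into Ion AmpliSeq transcriptome libraries, per the labels' protocols. The authors deposited unscaled counts of reads, with 1 amplicon for each of 23930 genes. The genome build is mm10, per the submitters' processing notes. The aligner is not given in the sources used here, nor is the counter. Reads carry no stated molecular identifiers, and bounds cover counting error only.

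Groups were taken from the labels, with 3 libraries in each of 6 groups, and 0 per-sample columns were left unmapped. Counts were filtered with filterByExpr (11316 genes left), normalised by TMM, and edgeR 4.0.16 (R 4.3.3) fitted them by its robust quasi-likelihood method, with 6 group means over all 18 libraries, so that the groups share an estimate of spread. Log2 changes and SE are fitted values, CPM use TMM-scaled library sizes, and folds are ratios of mean CPM. The fit was tested on simulated data. DESeq2 1.42.0, other scalings, no filter, the 6 libraries alone and leaving out each library were the alternatives.

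The members and the 39 gene lists were chosen with earlier results of these data known, so list counts are descriptions, to be read against the share of all genes called. Named genes are a set of anchor genes, up to 3 called members a direction of each list, the 12 largest changes a direction without overlap at 10 CPM or more, and up to 6 a direction for each difference between kinds of mice; exceptions are stated. Some members counted in the lists are not reported here by name. Positions are from GENCODE M21 (GRCm38) and promoters from RefSeq (GRCm38.p6).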

Additional observations from a re-analysis of the deposited data

Results flagged for a closer look

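The cell type difference of pMT-10 control mice differed from that of another kind of mouse, by the contrast of the contrasts in edgeR, for the named genes that follow. Each value is the log2 change (CD8 minus CD4) in control mice minus that in the other mice.

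Against zinc-fed C57BL/6 mice, Adgrg5 had a difference of -2.38, with all 3 libraries of CD8 above all 3 of CD4 in control mice.

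Against zinc-fed pMT-10 mice, genes with a larger value in control mice were Bend4 (4.66), Eomes (3.97), Kif13a (3.94), Gas7 (3.39), Plcg2 (3.36) and Pdgfb (3.28). Kif13a, a kinesin motor gene, averaged 10.6 ± 1.77 CPM in CD4 and 1.59 ± 0.421 CPM in CD8 of control mice, and 3.77 ± 0.779 and 0.0284 ± 0.0493 CPM in zinc-fed pMT-10 mice. Pdgfb, a growth factor gene, averaged 13.5 ± 1.5 CPM in CD8 and 4.8 ± 0.97 CPM in CD4 of control mice, and 42.4 ± 25.0 and 146 ± 31.8 CPM in zinc-fed pMT-10 mice. Gas7 averaged 0.868 ± 0.387 CPM in control CD4 and 16 ± 3.77 CPM in zinc CD4 cells. Plcg2, a phospholipase gene of B cell receptor signalling, averaged 5.60 ± 1.72 CPM in control CD8 and 0.239 ± 0.308 CPM in control CD4 cells, and 18.7 ± 4.53 and 8.98 ± 2.37 CPM in zinc-fed pMT-10 mice. The call was lost for Gas7 without zinc CD4 replicate 1 or control CD4 replicate 2, for Kif13a without zinc CD8 replicate 2 or 3, and for Plcg2 without 9 of the 12 libraries in turn.

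Genes with a smaller value in control mice were Gcnt1 (-9.35), Map6 (-8.52), Ttc16 (-8.20), Itgb8 (-8.17), Il10 (-7.50) and Ptpn3 (-6.98). All 6 had 0 counts in all 3 control CD8 libraries, so the size of these fitted differences depends on the prior count and is no bound. In zinc-fed pMT-10 CD8 cells they averaged 19.3 ± 15.1, 3.71 ± 1.28, 11.9 ± 4.88, 3.67 ± 3.33, 12.8 ± 9.62 and 2.33 ± 0.549 CPM, in the same order. Itgb8 lost its call without 9 of the 12 libraries in turn.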

How the results depend on the processing

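The count of genes called between CD8 and CD4 stayed within 1.5 times of 2458 under every alternative run. It was 2444 with RLE factors, 2423 with scaling by library size alone, 2485 with no filter on low counts, 2741 in DESeq2, 2591 with the 6 libraries alone and 1805 to 2029 without single libraries. Of the 143 named genes no change in sign occurred under these alternatives, and 110 of the 137 called genes were called without any single library as well. The calls of Il6st, Pfkp and Cox5a were lost under both other scalings, and Ccl5 was called only with no filter and with the 6 libraries alone. Against zinc-fed C57BL/6 mice the count of 1 became 71 with no filter, 8 in DESeq2, 2 with the groups' libraries alone and 1 to 2 without single libraries. Against zinc-fed pMT-10 mice the count of 428 became 613 with scaling by library size alone, 847 with no filter, 799 in DESeq2 and 133 to 693 without single libraries; the cause was not tested. Differences that were not called changed sign when single libraries were left out for Zbtb7b (-0.59 to 0.34) and Foxp3 (-0.89 to 0.43) against C57BL/6 mice and for Zbtb7b (-0.88 to 0.23) against zinc-fed pMT-10 mice. With no filter on low counts, Tbx21 was called against C57BL/6 mice and Foxp3 against zinc-fed pMT-10 mice. Alternatives for gene lists and for differences named outside the naming rule were chosen after seeing the data. No paired analysis was possible because the labels carry no number shared by the CD4 and CD8 libraries. Genes with few reads are limited by depth: at 10601653 to 18519474 total counts, 3 counts over a group set the bounds.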

Other observations

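GIMAP genes, which encode GTPases needed for lymphocyte survival, lay on the CD4 side for 5 of 7 members (71.4%, beside 12.8% of all genes) and on the CD8 side for 0, with a median log2 change of -0.56. Gimap3 stood at 1703, 1690 and 1521 CPM in CD4 and at 976, 857 and 1011 CPM in CD8 (1.73-fold, edgeR adjusted p = 0.000314), and Gimap1 was 1.85-fold higher in CD4. Gimap4 was 1.56-fold higher in CD4 and lost its call without CD8 replicate 2 (adjusted p = 0.0562). Of 8 regulators of G-protein signalling, which shorten the response to chemokine receptors, 5 (62.5%) were called higher in CD4 and 1 (12.5%) in CD8, beside 12.8% and 8.94% of all genes. These counts were 2 and 0 without CD4 replicate 1, 3 and 0 without CD4 replicate 2, 2 and 1 without CD8 replicate 1, and 3 and 1 without replicate 3 of either cell type. Rgs1 stood at 66.4, 74.5 and 62.0 CPM in CD4 and at 14.5, 12.9 and 5.51 CPM in CD8 (6.17-fold, adjusted p = 1.77e-07). Rgs16 stood at 26.4, 26.7 and 29.1 against 0, 0.195 and 0.159 CPM. Both genes separated the groups in full. Rgs10, the CD8 one, stood at 276, 420 and 203 against 173, 180 and 199 CPM and lost its call without CD4 replicate 1 or 2 or CD8 replicate 2 (adjusted p up to 0.172).

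Class I antigen presentation genes, which all nucleated cells use to show peptides to CD8 cells, gave 1 call (7.69%) on each side among 13 tested, below the shares of all genes. Nlrc5, the class I transactivator gene, was 1.36-fold higher in CD4, and Erap1, which trims peptides, 1.37-fold higher in CD8. Both calls were lost without CD8 replicate 1 or 3, among others, and the list's median log2 change was 0.07, or -0.02 with scaling by library size alone. Of 8 SLAM family and adaptor genes tested, Slamf1 alone was called (12.5%), at 97.3, 107 and 92.5 CPM in CD4 and 18.1, 19.6 and 13.6 CPM in CD8 (5.78-fold, adjusted p = 9.36e-10). Of 7 zinc response genes, Mt3 alone was called (14.3%), and Mt1 joined it without CD8 replicate 1. Mt3 had 55 reads over the CD4 libraries and 2 over the CD8 libraries, a ratio of 24.4 per depth (95% exact binomial interval 6.45 to 207). That interval covers counting error only and not the spread between libraries, and the CD8 reads were all in replicate 1.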
